A study of Mus musculus with 6 samples.

Results

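Immediate early response genes are switched on from existing signalling proteins, without new protein synthesis, when growth factors, cytokines, stretch or stress act on a cell. Their transcripts are short-lived, so their level follows recent signalling. Many encode transcription factors, among them the Fos, Jun, Atf and Maf proteins that pair through leucine zippers into the AP-1 complex and its relatives, and others encode brakes on the same signals, such as the cytokine receptor inhibitor Socs3. In pancreatic epithelium they are known to respond to injury, inflammation and tissue dissociation. The 10 genes described here (Fos, Jun, Junb, Maff, Atf3, Egr1, Klf2, Csrnp1, Ier5 and Socs3) were taken by symbol, and all 10 were found among the 11164 genes of the deposited table. They were chosen with earlier results of these data known.

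RNA came from colonies of sorted pancreatic cells of adult C57Bl/6 mice aged 2 to 4 months, which the labels call Pancreatic Progenitor Cells, sorted for high surface CD133 and low CD71. After overnight exposure to lentivirus, the cells grew for 3 weeks in methylcellulose and Matrigel with serum, RSPO1, nicotinamide, exendin-4, activin B, conditioned medium and puromycin, in all groups alike. The Glis3 knockdown (shGlis3) carried a pool of 5 shRNA clones against the zinc-finger factor gene Glis3, the CD133 knockdown (shCD133) a pool of 5 against CD133, the membrane glycoprotein encoded by Prom1, and the control (shControl) 1 shRNA without a mammalian target. Each group had 2 libraries, titled 1 and 3; the labels do not say whether animals or cultures differed between them, so a p-value reflects the spread between these libraries alone.

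Both targets were lowered in part. Glis3 stood at 13.3 and 11.96 RPKM (reads per kilobase of gene and megaread of depth) in the Glis3 knockdown libraries and at 26.1 and 24.2 RPKM in control (fold change -0.94 on the log2 scale of RPKM + 1, limma adjusted p = 0.00281). Prom1 stood at 88.0 and 96.0 RPKM in the CD133 knockdown libraries and at 191.3 and 203.4 RPKM in control (fold change -1.09, limma adjusted p = 0.00874, and 0.0737 and 0.0602 without control library 1 and without control library 3). Estimated depths lay between 25.8 and 29.2 megareads. Of 14 ductal epithelial markers 13 were in the table, with Krt18 at 890.0 RPKM or more and Epcam at 327.3 RPKM or more in every library; 1 of the 13, Bicc1, fell in the Glis3 knockdown, and 3 rose and 2 fell in the CD133 knockdown. Of the defining markers of other cells, 2 of 10 endothelial, 2 of 9 immune, 1 of 10 mesenchymal and 1 of 6 Schwann markers were in the table. So were 2 of 11 acinar and 6 of 9 endocrine markers. Markers absent from the table are not analysed here.

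The upstream sequence of the early genes differed in the motifs it held. RefSeq (GRCm38.p6) start sites were used for 9 of the 10 genes, and the 250 bases before each start were searched, in 14 windows. Egr1 was left out of this search, which says nothing about its start sites in RefSeq. The searched motifs were the cyclic AMP response element (CRE) TGACGTCA, its core TGACGT, the AP-1 site TGANTCA, the STAT site TTCNNNGAA, the EGR site GCGNGGGCG and the serum response CArG box on both strands, and TATAAA on the gene's own strand. The CRE contains the core, and a CRE was counted under both. The 4 windows printed here hold a match in a gene that fell in the CD133 knockdown, 5′ to 3′ on the gene's own strand, with matched bases in capitals.

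Fos: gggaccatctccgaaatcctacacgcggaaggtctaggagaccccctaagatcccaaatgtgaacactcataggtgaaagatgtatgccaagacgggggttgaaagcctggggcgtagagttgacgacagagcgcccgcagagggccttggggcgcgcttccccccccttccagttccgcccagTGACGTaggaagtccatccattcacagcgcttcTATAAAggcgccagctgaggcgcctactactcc
Maff: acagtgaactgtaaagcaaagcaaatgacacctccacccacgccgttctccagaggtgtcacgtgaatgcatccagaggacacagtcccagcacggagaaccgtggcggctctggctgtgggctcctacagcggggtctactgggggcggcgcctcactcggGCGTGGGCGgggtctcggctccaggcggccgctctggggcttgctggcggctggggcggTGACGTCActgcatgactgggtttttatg
Socs3: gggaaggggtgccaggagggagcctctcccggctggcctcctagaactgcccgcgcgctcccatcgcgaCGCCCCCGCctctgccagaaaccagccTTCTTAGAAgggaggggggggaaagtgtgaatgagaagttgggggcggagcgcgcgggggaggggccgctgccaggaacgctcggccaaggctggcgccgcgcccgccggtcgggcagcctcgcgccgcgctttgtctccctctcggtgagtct
Csrnp1: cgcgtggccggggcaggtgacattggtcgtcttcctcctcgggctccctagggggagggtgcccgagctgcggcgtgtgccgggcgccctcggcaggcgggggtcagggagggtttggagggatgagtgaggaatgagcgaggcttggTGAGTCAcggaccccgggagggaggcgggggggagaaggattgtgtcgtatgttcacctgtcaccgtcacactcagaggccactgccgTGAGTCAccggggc

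The Fos window (chr12:85473640-85473889, plus strand) holds the CRE core from -66 to -61 and a TATA box from -33 to -28, counted from the start. The Maff window (chr15:79347270-79347519, plus strand), before the second of 3 annotated starts, holds a full CRE from -29 to -22 and an EGR site from -88 to -80. The Socs3 window (chr11:117969367-117969616, minus strand) has a STAT site from -154 to -146 and an EGR site on the opposite strand from -181 to -173. The Csrnp1 window (chr9:119983024-119983273, minus strand), the last of 4 annotated starts, has AP-1 sites from -102 to -96 and from -14 to -8. Klf2, which also fell in the CD133 knockdown, had an EGR site in a window not printed here. Atf3 had a CRE core on the opposite strand. The windows of Jun, Junb and Ier5 and the other windows of Maff and Csrnp1 held none of these motifs. Of all 32851 mouse windows of this length, 1.55% held the full CRE, 6.47% its core, 6.75% an AP-1 site, 7.02% a STAT site, 4.7% an EGR site, 7.59% a TATA box and 1.47% a CArG box. These shares are per window, and a gene with several windows had more chances of a match. A match describes the letters of the window and nothing about which factor binds there.

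Levels per kilobase ran from among the highest in the table to a few RPKM. Over the 6 libraries, Fos averaged 624 RPKM, the 30th highest of the 11164 genes. Junb averaged 307 RPKM, Jun 249.5 RPKM and Egr1 233.5 RPKM, each above at least 98.8% of genes in the table. Ier5, Socs3 and Atf3 averaged 52.4, 48.1 and 43.2 RPKM. Maff averaged 19.3 RPKM, Csrnp1 9.90 RPKM and Klf2 4.09 RPKM. In this order the lowest Fos library lay above the highest of every other gene, while the ranges of Junb, Jun and Egr1 overlapped, as did those of Ier5, Socs3 and Atf3, and Maff, Csrnp1 and Klf2 each overlapped its neighbour. The scarcest gene, Klf2, still rested on roughly 103 to 292 reads a library, computed from its GENCODE M21 transcript length and the estimated depth.

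**Figure D1:**
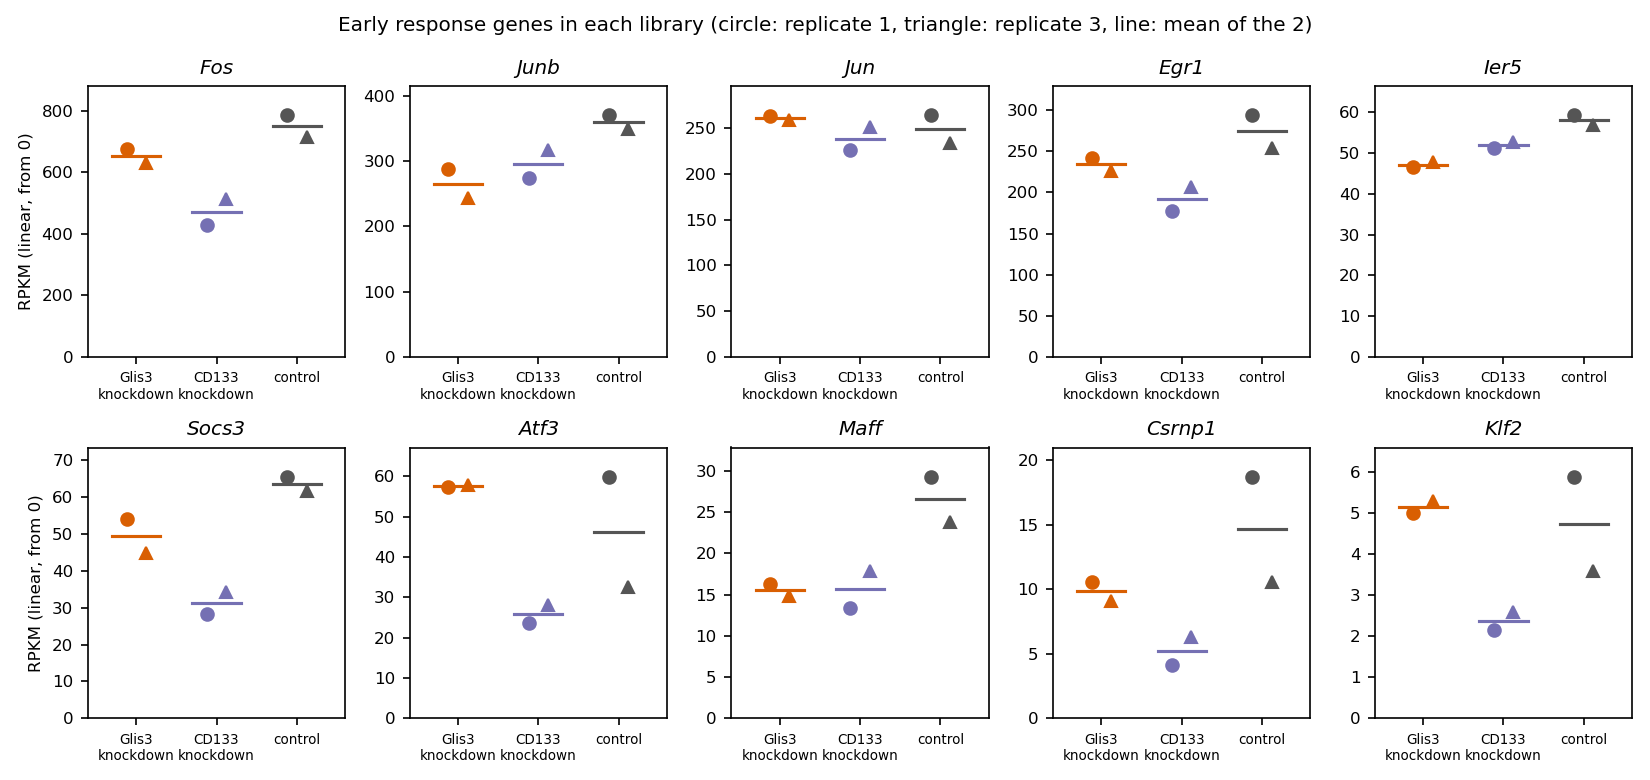
RPKM of the 10 early genes in each library on linear axes from 0, ordered by mean level, with Glis3 knockdown, CD133 knockdown and control from left to right. Circles are the libraries titled 1, triangles those titled 3, and lines the mean of the 2; in every panel control library 1 is the highest point, and in 8 of 10 panels CD133 knockdown library 1 is the lowest.

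In the CD133 knockdown most early genes were below control. Of the 10 genes, 6 fell and 4 did not pass the test (limma on log2(RPKM + 1), adjusted p under 0.05 over the 10829 genes tested). None rose, and all 10 fold changes were below 0, with a median of -0.71 on the log2 scale against 0.04 for all genes tested. By comparison 3.64% of all genes were called lower and 8.16% higher (11.8% in all), or 612 lower and 559 higher with median centring in place of 394 and 884. The 10 genes were chosen with earlier results of these data known, so setting them against all genes is not an independent test. The libraries of the 2 groups did not overlap, with the knockdown lower, for 9 of the 10 genes and for 22.1% of all genes, and with the knockdown higher for 0 of the 10 and 40.3% of all genes. Socs3, Csrnp1, Klf2, Maff, Fos and Egr1 were the genes that fell. In bulk colonies fewer cells of a type and less RNA per cell cannot be told apart. Ductal markers moved in the same comparison: Krt19, Krt8 and Sox9 rose, and Spp1 and Bicc1 fell. Krt19 had 824.8 and 619.5 RPKM in the CD133 knockdown and 432.2 and 473.6 RPKM in control, and Krt8 had 1273 and 967.9 RPKM in the knockdown and 663.2 and 793.1 RPKM in control. Spp1, which encodes osteopontin, had 3127 and 4202 RPKM in the knockdown and 6490.0 and 6733 RPKM in control. CD133 knockdown library 1 held the highest Krt19 and Krt8 and the lowest Spp1 of the 6 libraries. The part of these markers in the early gene differences was not tested.

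Fos (chr12:85473890-85477273, plus strand, mm10), the partner of Jun proteins in classical AP-1, had 427.7 and 511.8 RPKM in the CD133 knockdown libraries and 785.8 and 714.7 RPKM in control. Both knockdown libraries lay below both controls. The fold change was -0.68 (95% confidence interval -0.93 to -0.43, limma adjusted p = 0.0188), or 62.6% of control. Maff (chr15:79346621-79359076, plus strand), a small Maf protein that has a leucine zipper but no activation domain of its own, had 13.4 and 17.9 RPKM in the CD133 knockdown and 29.3 and 23.9 RPKM in control. It fell by 0.73 on the log2 scale (interval -1.08 to -0.39, limma adjusted p = 0.0279), or to 58.9% of control.

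The Jun genes were not called. Jun (chr4:95049034-95052222, minus strand), a main partner of Fos, had 225.8 and 250.9 RPKM in the CD133 knockdown and 264.3 and 234.1 RPKM in control, so the groups overlapped. Its fold change was -0.06 (interval -0.26 to 0.13, limma adjusted p = 0.65). Junb (chr8:84974484-84978718, minus strand), an AP-1 subunit that can oppose Jun, had 274.8 and 317.4 RPKM in the knockdown and 370.7 and 349.3 RPKM in control. The groups did not overlap, yet the fold change of -0.28 did not pass (interval -0.54 to -0.03, limma adjusted p = 0.128). Atf3 (chr1:191170296-191218039, minus strand), a stress-induced bZIP repressor, had 23.6 and 28.1 RPKM in the knockdown and 60.0 and 32.6 RPKM in control. The knockdown libraries lay below both controls, which differed widely, and a fold change of -0.76 did not pass (interval -1.35 to -0.17, limma adjusted p = 0.0938).

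Of the zinc-finger factors, Egr1, an early target of MAP kinase and serum response factor signalling, had 177.7 and 206.4 RPKM in the CD133 knockdown and 294.3 and 254.3 RPKM in control. It fell by 0.51 on the log2 scale (interval -0.76 to -0.27, limma adjusted p = 0.0279). Klf2 (chr8:72319033-72321656, plus strand), best known for its induction by fluid flow in endothelium, had 2.16 and 2.6 RPKM in the knockdown and 5.89 and 3.60 RPKM in control. It fell by 0.74 (interval -1.17 to -0.31, limma adjusted p = 0.0451), although control library 3 stood much nearer the knockdown than control library 1. The 2 endothelial markers in the table, Egfl7 and Esam, stayed between 1.37 and 1.68 RPKM in all 6 libraries.

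Socs3 (chr11:117966079-117970047, minus strand), the feedback inhibitor of cytokine receptors that signal through STAT3, had 28.2 and 34.3 RPKM in the CD133 knockdown and 65.5 and 61.7 RPKM in control. The knockdown stood at 49.2% of control, with the controls close together, and the fold change of -1.01 (interval -1.29 to -0.73, limma adjusted p = 0.0119) ranked among the lowest 0.259% of all genes. Csrnp1 (chr9:119971163-119984658, minus strand), a cysteine-serine-rich nuclear protein, had 4.10 and 6.31 RPKM in the knockdown and 18.7 and 10.6 RPKM in control. It fell by 1.31 (interval -1.94 to -0.68, limma adjusted p = 0.029), or to 35.5% of control; an exon of 1700019L13Rik overlaps it on the opposite strand. Ier5 (chr1:155096361-155099636, minus strand), a regulator of heat shock factor activity, had 51.2 and 52.7 RPKM in the knockdown and 59.4 and 56.8 RPKM in control, a fold change of -0.16 that did not pass (interval -0.28 to -0.03, limma adjusted p = 0.096).

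Leaving out control library 1, control library 3 or CD133 knockdown library 1 ended all or most calls over the whole table. Without control library 1 and without control library 3 limma called 0 of the 10829 genes in the CD133 knockdown, and without CD133 knockdown library 1 it called 18 higher and 12 lower. The count of early genes called was then 0 in each fit, with 7, 8 and 6 of them lower at an unadjusted p under 0.05; the median fold change was -0.43, -0.81 and -0.54. That of Socs3 was -0.96, -1.05 and -0.87, and that of Fos -0.61, -0.75 and -0.55. The fold change of Klf2 was -0.45 and that of Atf3 -0.33 without control library 1, and Klf2 was not called without CD133 knockdown library 3 either (limma adjusted p = 0.0938).

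In the Glis3 knockdown, of the 10 early genes, 3 fell (Maff, Junb and Ier5), 0 rose and 7 did not pass, with a median fold change of -0.26 against 0.04 for all genes tested. Over all genes 4.53% were called lower and 8.39% higher (12.9% in all), or 712 lower and 576 higher with median centring in place of 491 and 909. The choice of the genes with earlier results known limits this comparison too. The libraries did not overlap, with the knockdown lower, for 6 of the 10 early genes and for 21.1% of all genes, and with the knockdown higher for 0 of the 10 and 38.5% of all genes.

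Maff had 16.3 and 14.8 RPKM in the Glis3 knockdown and 29.3 and 23.9 RPKM in control, a fold change of -0.73 (interval -1.08 to -0.38, limma adjusted p = 0.0258). Junb had 288.4 and 242.7 RPKM in the Glis3 knockdown and 370.7 and 349.3 RPKM in control, a fold change of -0.44 (interval -0.70 to -0.19, limma adjusted p = 0.0432). Both knockdown libraries of each gene lay below both controls. Ier5 had 46.5 and 47.9 RPKM in the Glis3 knockdown and 59.4 and 56.8 RPKM in control, with the smallest replicate gaps of the 3, and fell by 0.29 (interval -0.42 to -0.17, limma adjusted p = 0.0188). Maff was called in both knockdowns, which share the control libraries.

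Socs3, Egr1 and Fos lay below control in both Glis3 knockdown libraries without passing. Socs3 had 54.0 and 44.7 RPKM in the Glis3 knockdown and 65.5 and 61.7 RPKM in control (fold change -0.36, limma adjusted p = 0.0878). Egr1 had 242.6 and 225.7 RPKM in the Glis3 knockdown and 294.3 and 254.3 RPKM in control (fold change -0.22, limma adjusted p = 0.191), and Fos 675.2 and 629.8 RPKM against 785.8 and 714.7 RPKM in control (fold change -0.20, limma adjusted p = 0.246). The fold change of Csrnp1 was -0.48 (interval -1.11 to 0.15), that of Jun 0.07 (interval -0.13 to 0.27), that of Klf2 0.13 (interval -0.30 to 0.55) and that of Atf3 0.37 (interval -0.22 to 0.97), all with overlapping libraries. Atf3 read 57.4 and 57.7 RPKM in the Glis3 knockdown, close to control library 1 at 60.0 RPKM and far from control library 3 at 32.6 RPKM, and the fold changes of Jun, Klf2 and Atf3 turned to -0.018, -0.16 and -0.058 without control library 3. Leaving out control library 1 gave Csrnp1 a fold change of -0.096 and leaving out control library 3 one of -0.87, while Egr1 stood at -0.12 and Fos at -0.13 without control library 1 and Socs3 at -0.23 without Glis3 knockdown library 3.

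No early gene was called by limma in the Glis3 knockdown without control library 1, without control library 3 or without Glis3 knockdown library 3, where 3, 6 and 3 were lower and 2, 0 and 0 higher at an unadjusted p under 0.05. Over all genes these fits called 12 higher and 9 lower, 48 higher and 34 lower, and 343 higher and 173 lower, in place of 909 and 491. The median fold change of the early genes was then -0.13, -0.33 and -0.20. Ier5 was also not called without Glis3 knockdown library 1 (limma adjusted p = 0.0537), where Socs3 was called at a fold change of -0.50, nor was Junb without CD133 knockdown library 3 (limma adjusted p = 0.0501).

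**Figure D2:**
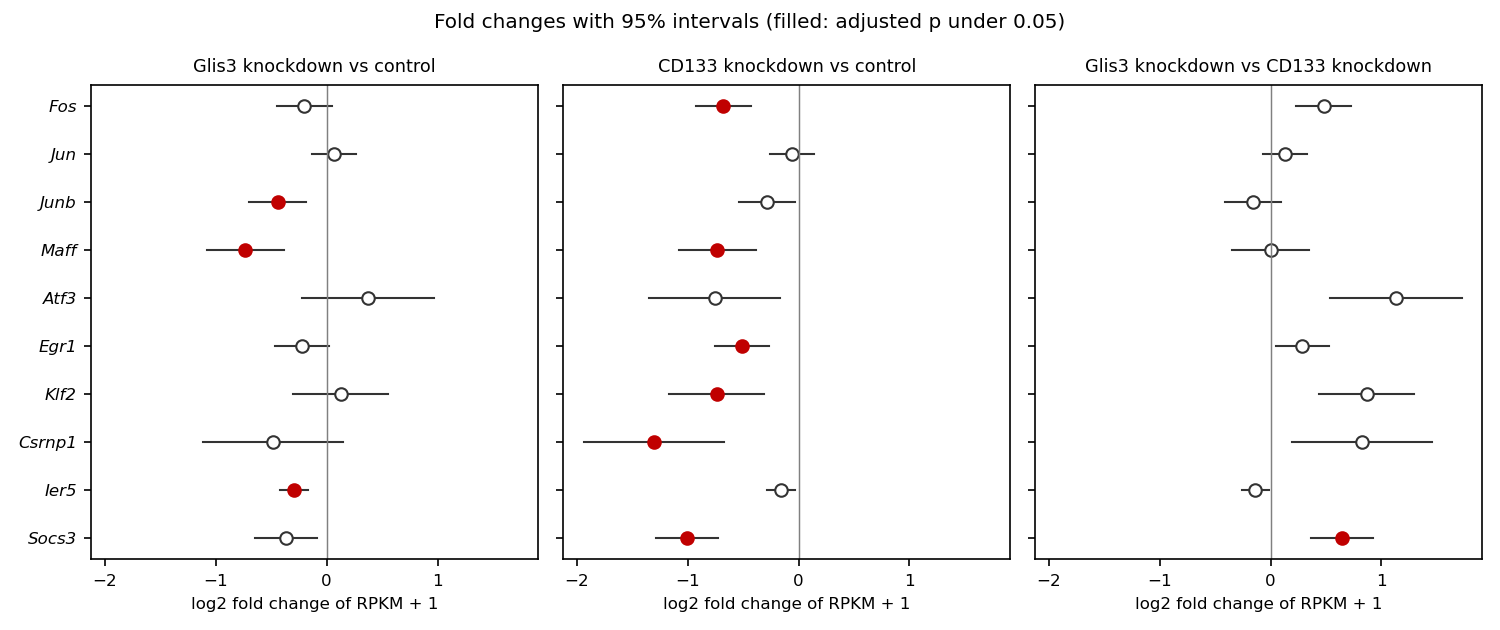
Log2 fold changes of RPKM + 1 with moderated 95% intervals for the 10 early genes in 3 comparisons, with points filled at an adjusted p under 0.05. The Glis3 knockdown has 3 filled points against control, the CD133 knockdown 6, all below 0, and only Socs3 is filled between the knockdowns, at 0.64.

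Set against each other, the knockdowns had their largest fold changes among the 10 in Atf3, Klf2, Csrnp1, Socs3 and Fos. Both Glis3 knockdown libraries lay above both CD133 knockdown libraries for 7 of the 10 genes, as they did for 27.9% of all genes, and below them for Ier5, as for 26.8% of all genes. Socs3 was the 1 gene called, where 1.61% of all genes were called higher, 2.46% lower and 4.06% in all: it had 54.0 and 44.7 RPKM in the Glis3 knockdown and 28.2 and 34.3 RPKM in the CD133 knockdown, a fold change of 0.64 (interval 0.36 to 0.92, limma adjusted p = 0.0402). Atf3 stood at 222.8% of the CD133 knockdown level (fold change 1.13, interval 0.54 to 1.72, limma adjusted p = 0.0588) and Klf2 at 216.4% (fold change 0.87, interval 0.44 to 1.29, limma adjusted p = 0.0508). Fos, at 138.9%, had a fold change of 0.48 (interval 0.23 to 0.73, limma adjusted p = 0.0588).

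For Maff, in contrast, the knockdowns had almost the same mean, 15.5 ± 1.08 RPKM in the Glis3 knockdown and 15.7 ± 3.18 RPKM in the CD133 knockdown (SD, n = 2 each), with a fold change of 0.00 and an interval from -0.35 to 0.35 (limma adjusted p = 0.998). Junb had 265.6 ± 32.3 RPKM in the Glis3 knockdown and 296.1 ± 30.1 RPKM in the CD133 knockdown (fold change -0.16, interval -0.41 to 0.10, limma adjusted p = 0.436). The difference in Socs3 was not called by limma without Glis3 knockdown library 1 or without either CD133 knockdown library, which left 0 early genes called and 4, 4 and 6 of them higher at an unadjusted p under 0.05; without either control library or with these 2 groups alone its adjusted p was between 0.0925 and 0.0926, while Klf2 and Atf3 were called.

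The early genes also differed together between the libraries of a group. In control, all 10 were higher in library 1 than in library 3, as were 48.3% of all genes tested, and in the CD133 knockdown all 10 were lower in library 1 than in library 3, as were 50.5% of all genes. In the Glis3 knockdown 7 were higher in library 1 and 3 were lower, as were 53.5% and 45.9% of all genes. The control gap was widest for Atf3 at 0.86 on the log2 scale, Csrnp1 at 0.77 and Klf2 at 0.58, wider than for at least 99.7% of all genes tested. Over all genes tested the median gap between the control libraries was 0.08, and for the early genes 0.19; in the CD133 knockdown these were 0.07 and 0.23, and in the Glis3 knockdown 0.08 and 0.10. The part of this spread in the differences between groups was not tested. The RPKM of the 10 genes made up 0.604% and 0.574% of the library sum in the Glis3 knockdown, 0.458% and 0.53% in the CD133 knockdown, and 0.724% and 0.624% in control.

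**Figure D3:**
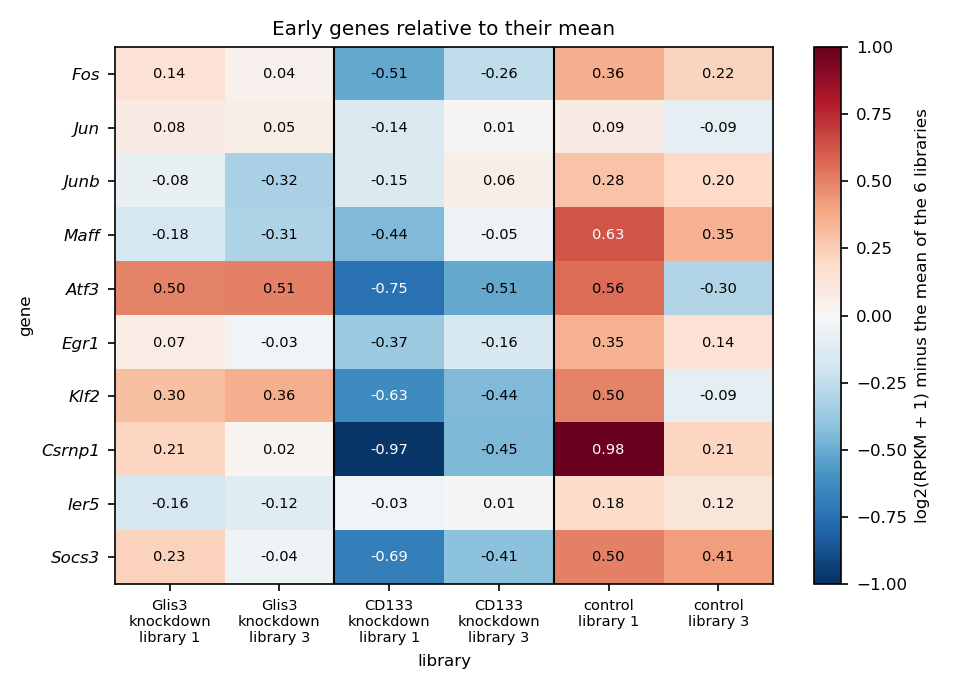
Log2(RPKM + 1) of each early gene minus its mean over the 6 libraries, with libraries in columns (Glis3 knockdown, CD133 knockdown, control) and genes in rows. The CD133 knockdown columns are below 0 for all genes except Jun, Junb and Ier5 in library 3, and control library 1 is above 0 throughout, up to 0.98 for Csrnp1.

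Likeness of profile was measured as a distance, the root mean square difference of the mean-centred log2 values over the 6 libraries. Fos and Egr1 were the closest pair at 0.088, Junb and Ier5 stood at 0.116 from each other, and Klf2 and Atf3 at 0.146. Junb and Atf3 were the farthest apart at 0.582. Of 7869 other genes averaging 5 RPKM or more, the 8 nearest to the mean profile of Junb, Maff and Ier5 were Wwc1 (0.0279), Stat3 (0.0302), Crebrf (0.0412), Gcnt2 (0.0511), Irf2bpl (0.0512), Zfp36l1 (0.0518), Bicc1 (0.0556) and Ece1 (0.0585). Wwc1 encodes a scaffold of Hippo signalling, Stat3 a cytokine-activated transcription factor and Zfp36l1 an RNA-binding protein of the mRNA decay machinery, while Bicc1 is also 1 of the 13 ductal markers.

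Relatives of the early genes were counted in lists from textbook knowledge, some of which share genes. These lists too were chosen with earlier results of these data known. Of the AP-1 and small Maf family, 15 of 20 genes were tested, 5 of them already described. Of these 15, 3 fell and 0 rose in the Glis3 knockdown (median -0.05), with Maff and Junb among them. In the CD133 knockdown 3 fell and 0 rose (median -0.16): Maff, Fos and the Fos relative Fosl2, which had 37.7 and 39.4 RPKM in the knockdown and 61.4 and 51.1 RPKM in control (fold change -0.53, limma adjusted p = 0.0204).

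Of 35 other immediate early genes, 8 fell in the CD133 knockdown, 0 rose and 27 did not pass (median -0.22, and 22.9% called lower against 3.64% of all genes). Nfil3, a bZIP repressor, fell by 0.83, Hbegf, a ligand of the EGF receptor, by 0.69, the zinc-finger factors Klf4 and Klf10 by 0.67 and 0.58, and Trib1, a pseudokinase, by 0.66. Hbegf had 61.1 and 68.5 RPKM in the CD133 knockdown and 122.2 and 90.8 RPKM in control. Pim1, Klf6 and Pim3 also fell. In the Glis3 knockdown 2 of the 35 fell, Klf10 by 0.46 and Btg1, an antiproliferative factor, by 0.28, and Gadd45b, a stress sensor, rose by 0.28 (median -0.10). That is 5.71% called lower and 2.86% higher, against 4.53% and 8.39% of all genes. With median centring 5 of the 35 fell there and 0 rose. In the CD133 knockdown limma called 0 of the 35 in the fits that left out control library 1, control library 3 or CD133 knockdown library 1, with 11, 17 and 10 lower and 2, 0 and 0 higher at an unadjusted p under 0.05. Their medians were -0.12, -0.33 and -0.08, and leaving out CD133 knockdown library 3 gave 4 calls and a median of -0.36. For the Glis3 knockdown the list's median turned to 0.03 in the fit that left out control library 1, and it was -0.03 in the one that left out Glis3 knockdown library 3. Trib1 and Klf6 were higher in the Glis3 knockdown than in the CD133 knockdown, by 0.56 and 0.45, and Btg1 was lower by 0.30.

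The Klf family (11 of 17 tested) had 5 falls in the CD133 knockdown, with Klf2, Klf4, Klf10, Klf6 and Klf11 (median -0.27), and 2 falls in the Glis3 knockdown, Klf10 and Klf9 (median -0.13). Klf6 was called higher in the Glis3 knockdown than in the CD133 knockdown. Among 14 tested feedback inhibitors of MAP kinase signalling, the phosphatase gene Dusp5 fell by 0.77 and Spry1 by 0.39 in the CD133 knockdown while Dusp14 rose by 0.45 (median -0.11). Dusp7 and Dusp16 fell in the Glis3 knockdown by 0.40 and 0.36 and Dusp14 rose by 0.56 (median 0.02). Dusp5 and Spry1 were higher in the Glis3 knockdown than in the CD133 knockdown, by 0.67 and 0.64.

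**Figure D4:**
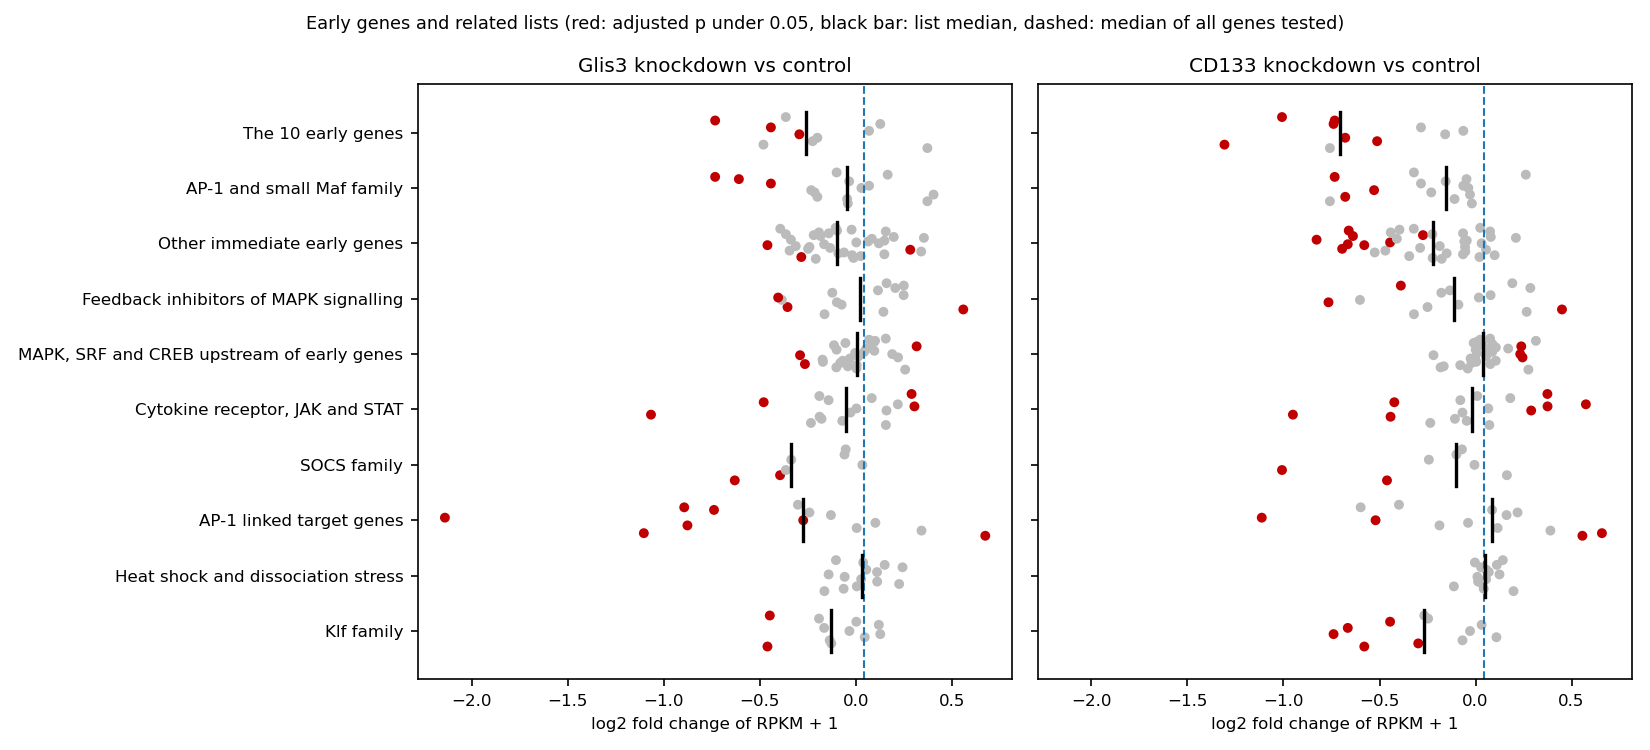
Log2 fold changes of RPKM + 1 for the 10 early genes and 9 related lists in the Glis3 knockdown (left) and the CD133 knockdown (right), each against control; red points passed an adjusted p under 0.05, black bars are list medians and the dashed line is the median of all genes. The early genes have the lowest median on the right, at -0.71, while the heat shock list has 0 red points in either panel.

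Upstream of the early genes, 29 receptor, kinase and factor genes were tested. Of the 29, 3 rose in the CD133 knockdown (Hras, Mapk9 and Map2k2, by 0.24, 0.24 and 0.23), 0 fell and the median was 0.04. That is 10.3% of the list called higher, near the 8.16% of all genes. With median centring or with quantile normalization 0 of the 29 were called there. Mapk9 rose in the Glis3 knockdown by 0.32, and Map2k1 and Egfr fell by 0.29 and 0.27 (median 0.00). There 3.45% of the list were called higher and 6.9% lower, against 8.39% and 4.53% of all genes. Egfr was also lower in the Glis3 knockdown than in the CD133 knockdown, by 0.34. A list of 14 heat shock genes was also counted. It leaves out early genes such as Fos and Egr1, so a dissociation response was not tested by it. These 14 heat shock genes gave 0 calls by limma in each of the 3 comparisons. Their medians against control were 0.03 in the Glis3 knockdown and 0.05 in the CD133 knockdown. The smallest adjusted p values against control were 0.101 for Hspb1 and 0.107 for Dnajb4 in the Glis3 knockdown, and 0.207 for Bag3 and 0.214 for Dnajb1 in the CD133 knockdown. Between the knockdowns they were 0.0854 for Hspa1b and 0.0881 for Bag3. At an unadjusted p under 0.05, 2 were higher in the Glis3 knockdown, 0 were higher or lower in the CD133 knockdown, and 2 were higher and 3 lower between the knockdowns.

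On the cytokine route to Socs3, Osmr and Stat3 fell in both knockdowns. Osmr, the oncostatin M receptor, had 4.36 and 3.25 RPKM in the Glis3 knockdown, 3.30 and 5.22 RPKM in the CD133 knockdown, and 9.63 and 8.40 RPKM in control. It fell by 1.07 (limma adjusted p = 0.018) and 0.95 (limma adjusted p = 0.0276) against control. Stat3 had 30.9 and 27.1 RPKM in the Glis3 knockdown, 27.6 and 32.8 RPKM in the CD133 knockdown, and 42.2 and 39.3 RPKM in control, and fell by 0.48 and 0.42. Exons of Stat3 overlap those of Stat5a on the opposite strand, and whether counting used strand is not given in the sources used here. Tyk2, a Janus kinase, rose by 0.29 in the Glis3 knockdown and by 0.37 in the CD133 knockdown, Stat2 rose by 0.57 and Pias3 by 0.29 in the CD133 knockdown, and Lifr, the leukaemia inhibitory factor receptor, fell there by 0.44. In all, 2 of 16 genes of this list rose and 2 fell in the Glis3 knockdown (median -0.05), and 4 rose and 3 fell in the CD133 knockdown (median -0.02). Between the knockdowns 0 of the 16 were called by limma, with the smallest adjusted p at 0.133 for Stat2 and 0.15 for Lifr and with 1 higher and 2 lower at an unadjusted p under 0.05.

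Within the SOCS family, of which 7 genes were tested, Cish, another STAT-induced member, fell by 0.63 in the Glis3 knockdown and by 0.46 in the CD133 knockdown, and Socs2 fell by 0.39 in the Glis3 knockdown. Socs2 had a mean of 3.99 RPKM in the Glis3 knockdown and 6.33 RPKM in the CD133 knockdown, a fold change of -0.56 opposite in sign to that of Socs3 between the same groups. Of the 7, 2 fell and 0 rose in each knockdown against control, Cish and Socs2 in the Glis3 knockdown and Cish and Socs3 in the CD133 knockdown. The family median was -0.34 in the Glis3 knockdown and -0.10 in the CD133 knockdown.

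Of genes often placed downstream of AP-1, 13 were tested. Of these, 6 fell and 1 rose in the Glis3 knockdown (median -0.27), among them the collagenase Mmp13 by 2.14, the chemokines Ccl2 by 1.10 and Cxcl1 by 0.88, and Timp1, an inhibitor of metalloproteinases, by 0.89, while Areg, a ligand of the EGF receptor, stood 0.67 higher. In the CD133 knockdown Mmp13 fell by 1.11 and Hmox1, heme oxygenase 1, by 0.52, while Ccl2 and Areg rose by 0.66 and 0.56 (median 0.09). Ccl2 was lower in the Glis3 knockdown than in the CD133 knockdown, at 6.69 RPKM in the Glis3 knockdown against 25.0 RPKM in the CD133 knockdown, a fold change of -1.76 (limma adjusted p = 0.00474), as were Mmp13 and Plaur, by 1.03 and 0.46.

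The calls over the related lists also fell in those fits without 1 library in which far fewer of all genes were called. The calls of the CD133 knockdown against control rose without either Glis3 knockdown library, over these lists and over all genes alike. Of 142 tested list genes other than the 10, 6 rose and 18 fell in the Glis3 knockdown and 10 rose and 18 fell in the CD133 knockdown. Without control library 1 limma called 0 higher and 2 lower in the Glis3 knockdown and 0 in the CD133 knockdown, where 17 were higher and 23 lower at an unadjusted p under 0.05. Without control library 3 it called 0 and 3 in the Glis3 knockdown and 0 in the CD133 knockdown, where 13 were higher and 37 lower at an unadjusted p under 0.05. Without Glis3 knockdown library 3 it called 1 higher and 3 lower in the Glis3 knockdown, and without CD133 knockdown library 1 it called 0 higher and 1 lower in the CD133 knockdown. Between the knockdowns 4 were called higher and 8 lower in the Glis3 knockdown, and 0 to 2 higher and 2 to 10 lower without any 1 library.

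Apart from the endocrine genes, few markers of other cells were in the table. Fn1, the 1 mesenchymal marker in the table, had 53.5 and 56.3 RPKM in the Glis3 knockdown, 84.7 and 87.8 RPKM in the CD133 knockdown, and 112.3 and 111.9 RPKM in control. Ncam1, the 1 Schwann marker, had 1.79 and 1.22 RPKM in the Glis3 knockdown, 3.30 and 3.75 RPKM in the CD133 knockdown and 3.89 and 3.75 RPKM in control. Of 9 immune markers, Cd68 stayed between 5.12 and 6.39 RPKM. Cd14, which epithelium also expresses, had 366.1 and 293.1 RPKM in the Glis3 knockdown, 318.9 and 373.9 RPKM in the CD133 knockdown, and 395.5 and 422.1 RPKM in control. Its knockdown libraries all lay below both controls, and 0 of these 2 immune markers were called by limma. Of 11 acinar markers 2 were in the table, and 1 of them, Cela1, stayed between 0.49 and 1.06 RPKM. The other, Reg1, had 107.8 and 48.6 RPKM in the Glis3 knockdown, 388.5 and 382.0 RPKM in the CD133 knockdown and 196.5 and 304.4 RPKM in control. Fn1 fell in both knockdowns and Ncam1 and Reg1 in the Glis3 knockdown. The endocrine genes Gcg, Sst, Ppy, Chga, Chgb and Pcsk1 did not exceed 8.15 RPKM in any library. Sst, which encodes somatostatin, had 8.15 and 4.22 RPKM in the Glis3 knockdown, 1.43 and 0.55 RPKM in the CD133 knockdown, and 2.56 and 5.89 RPKM in control. Gcg, which encodes glucagon, had 3.29 and 1.03 RPKM in the Glis3 knockdown, 0.52 and 0.10 RPKM in the CD133 knockdown, and 0.35 and 1.51 RPKM in control. These 2 were the endocrine genes tested, and 0 were called by limma. Their median fold change was 0.58 in the Glis3 knockdown and -0.93 in the CD133 knockdown against control, and 1.51 between the knockdowns, where both were higher at an unadjusted p under 0.05; against control 0 were in the Glis3 knockdown and 1, Sst, was lower in the CD133 knockdown. The part of these cell types in the early gene differences was not tested.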

How the data were processed

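RNA-seq of 6 libraries was deposited by the authors as 1 table of RPKM values for 11164 genes, each reaching at least 1.00 RPKM in 1 or more libraries. Per the labels' protocols, libraries were stranded and poly(A)-selected. Per the submitters' processing notes, mm10 was the build and HTSeq, TopHat2 and bcl2fastq 2.18.0.12 were used. Sources used here do not give the annotation, the use of strand or library totals. RPKM holds no counts, so depth was estimated from the spacing of low values. For each library the depth between 3 and 80 megareads with the most values within 0.15 of a whole read was taken. That share was 56.8% to 62.6%, against 30% by the tolerance alone and a median of 29.3% to 30.1% over the scanned depths. As the largest of many, it lies above 30% in part by choice. No count test was run.

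Values were analysed as log2(RPKM + 1), so fold changes of low genes are understated. A limma 3.58.1 model (R 4.3.3) with 1 term per group and a variance trend covered the 10829 genes averaging 1 RPKM or more, with Benjamini-Hochberg adjustment over all of them. The script was tested on simulated data. Named list genes were up to 4 per list and comparison with the largest fold change among those called, or the 2 with the smallest p where none was called; further called genes of a list were named after their values were seen, and some called list genes are counted but not reported here by name. Alternatives were other scalings, pseudocounts, filters and fits, and each library left out. Locations are from GENCODE M21 and sequences from RefSeq. The genes and lists were chosen with earlier results of these data known.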

Additional observations from a re-analysis of the deposited data

How the results depend on the processing

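With 2 libraries a group, the number of early genes called moved when 1 library was left out. In the Glis3 knockdown against control, where 3 were called, leaving out 1 library gave 0 to 3, and in the CD133 knockdown against control, where 6 were called, it gave 0 to 6. Between the knockdowns, where 1 was called, it gave 0 to 2, and median centring, quantile normalization, a pseudocount of 0.1, no filter and a fit of only these 2 groups each gave 2. Where a group kept 1 library, that library was assumed to vary like the others; the cause of the lost calls was not tested.

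The direction turned for Jun, Klf2 and Atf3 in the Glis3 knockdown against control without control library 3 (-0.018, -0.16 and -0.058), with ranges over the left-out libraries of -0.018 to 0.16, -0.16 to 0.42 and -0.058 to 0.80. It turned for Jun in the CD133 knockdown against control with quantile normalization (0.00093), without control library 1 (0.024) and without CD133 knockdown library 1 (0.012), with a range of -0.15 to 0.024. It turned for Maff between the knockdowns with median centring (-0.0037), a pseudocount of 5 (-0.0012), without Glis3 knockdown library 1 (-0.066) and without CD133 knockdown library 1 (-0.20), with a range of -0.20 to 0.20; none of these genes was called in that comparison. Quantile normalization ended the calls of Junb in the Glis3 knockdown (limma adjusted p = 0.0555) and of Egr1 in the CD133 knockdown (limma adjusted p = 0.0541), and a pseudocount of 5 that of Klf2 (limma adjusted p = 0.0536), which a minimum mean of 5 RPKM leaves out.

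Libraries with the same number did not deviate in the same direction. The correlation over genes was -0.37 between the Glis3 knockdown and control, -0.43 between the CD133 knockdown and control, and 0.03 between the knockdowns. The negative values are shared deviations of opposite sign in control and knockdown, while a block by number assumes the same shift in all groups. With the number as a replicate block, limma called 0 early genes in the Glis3 knockdown (4 lower at an unadjusted p under 0.05), 2 in the CD133 knockdown (Fos and Socs3), with 3 of the 35 other immediate early genes there in place of 8, and 0 early genes between the knockdowns (6 higher at an unadjusted p under 0.05). Depth limits Klf2 most, and RPKM gives no counting interval.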

Other observations

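Values of other well-known early genes are given here, chosen after they were seen. Fosb, a further AP-1 subunit, had 120.7 and 96.9 RPKM in the Glis3 knockdown, 63.9 and 99.8 RPKM in the CD133 knockdown, and 123.2 and 53.8 RPKM in control. Its groups overlapped, with fold changes against control of 0.40 in the Glis3 knockdown (limma adjusted p = 0.509) and -0.03 in the CD133 knockdown (limma adjusted p = 0.968). Nr4a1, an orphan nuclear receptor, had 105.8 and 76.5 RPKM in the Glis3 knockdown, 56.2 and 72.1 RPKM in the CD133 knockdown, and 103.7 and 69.3 RPKM in control. Dusp6, the phosphatase of ERK, had 27.6 and 27.3 RPKM in the Glis3 knockdown, 19.3 and 28.6 RPKM in the CD133 knockdown, and 40.4 and 32.3 RPKM in control. Zfp36, which promotes decay of early transcripts, had a fold change of -0.40 in the CD133 knockdown against control (limma adjusted p = 0.0542), and Ier2 -0.29 (limma adjusted p = 0.0701).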
